A study of Mus musculus with 2 samples.

Results

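In mouse embryonic stem cells, 550 stretches of the genome at least 10000 bp long were marked by closely spaced peaks of H3K9me3, trimethylation of lysine 9 of histone H3. They were found by joining the replicated peaks of chromosomes 1 to 19 that lay at most 1000 bp apart and keeping joined blocks of at least 10000 bp. The 118999 peaks formed 70411 joined blocks, so the 550 long blocks were 0.781% of them. The other 69861 joined blocks were shorter, and 44741 joined blocks were single peaks. The long blocks were chosen by the positions of the replicated peaks, so their number, length and peak cover are given as a description, with no test.

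The mark was mapped by ChIP-seq, in which DNA bound by an antibody to the mark is sequenced and places with more reads than a background are called as peaks. The cells were the E14TG2a.4 line, a male line of strain 129/Ola, in 1 group of 2 biological replicates. All values come from this 1 line, and no other condition or control library was analysed here. The data are peak lists in the mm10 build, and read depth is unknown for both replicates. Peak lists also cannot tell a mark on a few cells from a weak mark on all cells. They hold no RNA, so the cell type could not be checked by expression. None of the 6 stem cell marker genes and none of the 6 fibroblast marker genes looked up were overlapped by a long block. Only 0.895% of all protein-coding genes were overlapped, so lists of 6 genes are too short to tell anything about the cell type.

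H3K9me3 is placed by enzymes such as SETDB1, which KRAB zinc finger proteins bring to DNA through TRIM28, and by the SUV39H enzymes. The protein HP1 binds the mark and helps to hold chromatin silent. In embryonic stem cells the mark is best known over endogenous retroviruses, over clusters of zinc finger genes, over pericentromeric repeats and at imprinting control regions. At imprinting control regions it sits on the copy of the DNA that carries DNA methylation, where ZFP57 binds a methylated TGCCGC hexamer.

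The promoter sequences shown here are of genes whose start lay in a long block. They come from the 2 gene groups with the largest shares overlapped, imprinted genes and secretoglobins. The imprinted genes shown are those whose promoter window, which also takes in 50 bases after the start, held TGCCGC on either strand. The windows of Airn, Peg3, Usp29 and Zrsr1, also wholly in long blocks, held none and are not shown. Another Mest start in the block, whose window held none, was passed over. Each sequence is the 250 bases before a transcript start, 5′ to 3′ on the gene's strand, from RefSeq on GRCm38.p6, the mm10 assembly. Capitals mark TGCCGC or its reverse complement GCGGCA. For the imprinted genes, Mest is at chr6:30737800-30738049 (plus strand) and Nap1l5 at chr6:58907127-58907376 (minus strand). Nnat is at chr2:157559828-157560077 and Meg3 at chr12:109540746-109540995, both on the plus strand. The secretoglobin promoters are Scgb2b1 at chr7:31263486-31263735 and Scgb2b2 at chr7:31302519-31302768, both on the plus strand. Scgb2b3 is at chr7:31362101-31362350 on the minus strand.
Mest: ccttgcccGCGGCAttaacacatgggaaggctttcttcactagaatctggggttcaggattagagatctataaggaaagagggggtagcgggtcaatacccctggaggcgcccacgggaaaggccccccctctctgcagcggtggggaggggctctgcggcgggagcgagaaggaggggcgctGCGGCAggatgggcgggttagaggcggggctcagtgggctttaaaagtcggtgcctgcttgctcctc
Nap1l5: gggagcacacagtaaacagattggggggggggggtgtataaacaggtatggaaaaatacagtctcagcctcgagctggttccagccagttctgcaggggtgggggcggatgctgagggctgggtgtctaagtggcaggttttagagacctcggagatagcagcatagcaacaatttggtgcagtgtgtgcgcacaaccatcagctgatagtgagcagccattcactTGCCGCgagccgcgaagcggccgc
Nnat: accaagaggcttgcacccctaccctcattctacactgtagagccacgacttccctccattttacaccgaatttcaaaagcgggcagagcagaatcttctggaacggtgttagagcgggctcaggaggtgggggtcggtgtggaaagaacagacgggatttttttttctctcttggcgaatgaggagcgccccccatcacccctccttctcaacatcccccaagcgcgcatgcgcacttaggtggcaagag
Meg3: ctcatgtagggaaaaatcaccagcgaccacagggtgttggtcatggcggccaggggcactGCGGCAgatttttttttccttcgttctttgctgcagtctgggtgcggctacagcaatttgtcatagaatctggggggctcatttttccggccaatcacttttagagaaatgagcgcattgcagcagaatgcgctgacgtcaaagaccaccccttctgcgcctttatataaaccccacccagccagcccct
Scgb2b1: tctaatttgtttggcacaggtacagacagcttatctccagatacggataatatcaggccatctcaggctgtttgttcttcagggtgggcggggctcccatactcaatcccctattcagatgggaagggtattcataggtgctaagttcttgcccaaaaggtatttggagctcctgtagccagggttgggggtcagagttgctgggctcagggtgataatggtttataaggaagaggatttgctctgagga
Scgb2b2: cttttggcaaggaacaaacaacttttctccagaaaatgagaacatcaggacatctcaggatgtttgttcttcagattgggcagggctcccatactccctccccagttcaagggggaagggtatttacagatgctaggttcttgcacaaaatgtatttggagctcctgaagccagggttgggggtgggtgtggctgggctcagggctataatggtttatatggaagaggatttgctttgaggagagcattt
Scgb2b3: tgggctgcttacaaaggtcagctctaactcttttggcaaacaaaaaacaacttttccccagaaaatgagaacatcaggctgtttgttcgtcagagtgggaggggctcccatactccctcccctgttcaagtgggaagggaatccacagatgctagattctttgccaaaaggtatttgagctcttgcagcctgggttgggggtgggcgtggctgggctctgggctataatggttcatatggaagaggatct

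The hexamer occurred 2 times in the Mest sequence, once in Nap1l5 and once in Meg3, and in none of the other 4 sequences. With the 50 bases after the start taken in, Nnat held 1 and Nap1l5 held 2. The imprinted promoters shown were those with the hexamer, so these counts give no comparison with the secretoglobins. All 250 bases were under replicated peaks at every one of the promoters shown except Scgb2b2, where 80.8% were. At the Scgb2b2 promoter, peaks of replicate 1 covered 4.4% of the bases and peaks of replicate 2 covered 69.6%. Replicate 1 covered 64.4% of the Meg3 sequence and 78.8% of the Scgb2b1 sequence, and replicate 2 covered all of both. The 3 secretoglobin sequences resembled one another, with 84.3% identical bases over 242 aligned between Scgb2b1 and Scgb2b2. Scgb2b2 and Scgb2b3 shared 88.2% over 221 aligned bases, and Scgb2b1 and Scgb2b3 shared 80.3% over 228. Each of the 7 promoter windows had a single exact copy in the mm9 genome, where mm9 regions of both replicates overlapped it. A single exact copy of a 300-base window does not tell whether reads were placed on 1 gene. The promoter windows of Scgb1b2 and Scgb2b21, also wholly in long blocks and not shown, each had a single exact copy too, but no mm9 region of either replicate overlapped it.

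Long blocks held 7.66 Mb of sequence, of which 6.45 Mb, or 84.2%, lay under replicated peaks. They took up 7.12% of all replicated peak bases on chromosomes 1 to 19 with 3.85% of the peaks. Their length ran from 10000 to 38793 bp with a median of 12517 bp. Of the 550, 226 were under 12 kb, 49 were at least 20 kb and 6 were at least 30 kb. A block joined between 2 and 27 peaks, with a median of 8, and none was a single peak. In 112 blocks 1 peak made up at least 50% of the length.

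**Figure D1:**
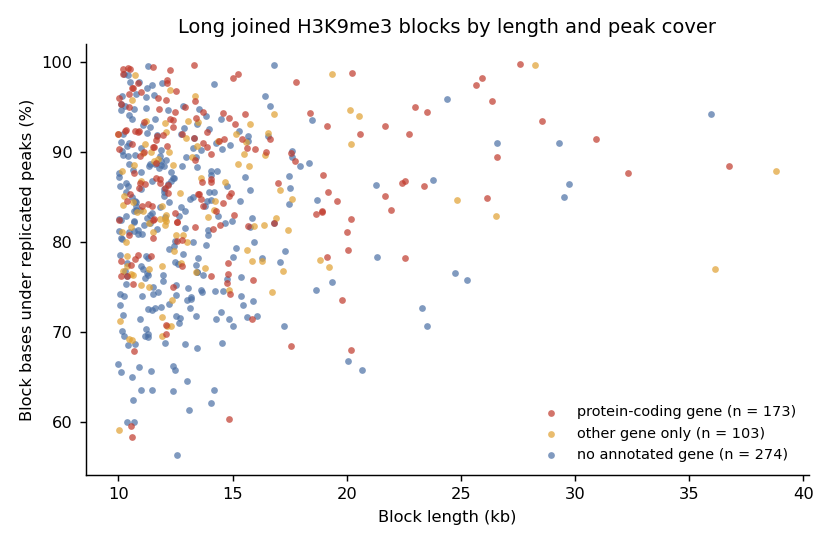
Each point is 1 of the 550 long blocks, by its length in kb and the percentage of its bases under replicated peaks, coloured by whether it overlaps a protein-coding gene (173 blocks), another annotated gene only (103) or no annotated gene (274). Most points sit between 10 and 15 kb, and peak cover ranges from 56.3 to 99.8%.

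Fold enrichment is the authors' value for each peak, a linear ratio, and the sources used here do not give its denominator. Single peaks inside long blocks had a median fold enrichment of 5.70, against 4.2 for peaks in the other joined blocks. The strongest peak of a long block reached 6.0 at the lowest, 14.5 at the median and 35.4 at the highest. For joined blocks under 10 kb the same value had a median of 4.46, but those blocks had a median of 1 peak. The strongest block was at chr17:27354689-27366711, over the miRNA genes Mir7217 and Mir7218. Its strongest peak was 23.7 in replicate 1 and 40.5 in replicate 2, which is 32.1 ± 11.9 (SD, n = 2).

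The length limit cut through a continuous range. Just inside it were chr13:61133582-61143581 with 10000 bp and 8 peaks, chr9:123927346-123937346 with 10001 bp over Gm51701, and chr15:8232110-8242113 with 10004 bp over Cplane1. Just outside were chr5:32704206-32714190 with 9985 bp, chr2:27493966-27503939 with 9974 bp over Brd3, and chr9:119851397-119861360 with 9964 bp. Between 10 and 11 kb there were 131 joined blocks, and between 9 and 10 kb there were 214.

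Both replicates marked the long blocks, replicate 2 more fully. Peaks of replicate 1 covered 27.4% of a block at the lowest, 66.3% at the median and 98.9% at the highest. Peaks of replicate 2 covered 47.2% at the lowest, 82.9% at the median and 100% at the highest. Replicate 2 covered more of the block in 540 of the 550 and also had the higher strongest peak in 540. Under 50% of the block was covered in 71 blocks by replicate 1 and in 1 block by replicate 2. The strongest peak had a median of 10.1 in replicate 1 and 15.9 in replicate 2. The replicated list was made from these same lists, so this is no independent check, and the part of sequencing depth in the gap between replicates was not tested.

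The same joining rule on a replicate's own peaks gave 315 long blocks in replicate 1 and 789 in replicate 2. Of the 550 long blocks, 299 overlapped a long block of replicate 1 and 517 one of replicate 2. Both replicates had their own long block at 289 of the 550, and neither did at 23.

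**Figure D2:**
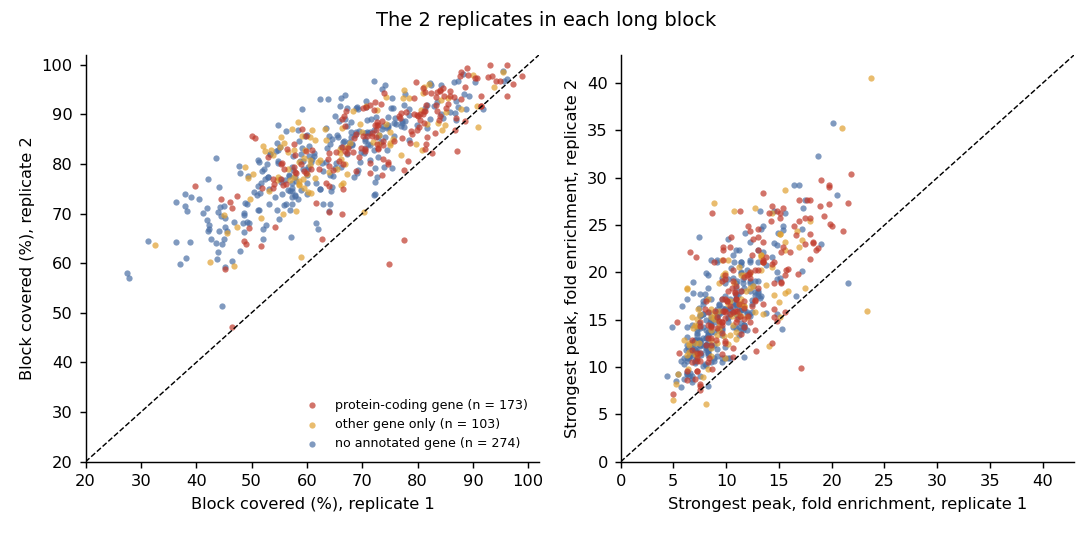
Left, the percentage of each long block covered by peaks of replicate 1 (x axis) and replicate 2 (y axis); right, the fold enrichment of the strongest peak in the block in each replicate. Each point is 1 block, the dashed line marks equal values, and 540 of 550 points lie above it in each panel.

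Long blocks overlapped genes about as often per base as the other joined blocks did. Protein-coding gene bodies held 26.1% of the peak bases in long blocks and 25.5% of those in the other joined blocks. For long noncoding RNA (lncRNA) genes the shares were 8.07% and 8.84%, and for pseudogenes 2.27% and 1.56%. Of the 550 long blocks, 173 overlapped a protein-coding gene, 103 only another kind of gene and 274, or 49.8%, no annotated gene.

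The gene-free blocks were somewhat shorter and weaker than those on protein-coding genes. Blocks on protein-coding genes had a median length of 13334 bp, against 12454 bp for blocks on other genes only and 12312.5 bp for blocks with no gene. The strongest peak had a median fold enrichment of 16.2 in blocks on protein-coding genes, 14.6 in blocks on other genes only and 13.3 in blocks with no gene. In replicate 1 the medians of block cover were 72.7%, 63.2% and 62.4% in the same order of classes, and in replicate 2 they were 85.5%, 82.8% and 80.6%. The 3 classes overlapped widely in every one of these values. The gene-free blocks lay at a median of 52133.5 bp from the nearest protein-coding gene, 92 of them lay over 100 kb away and 50 lay within 10 kb. The most remote was chr15:14841556-14853532, at 1665148 bp from Cdh6, a cadherin gene.

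In all, 334 annotated genes were overlapped by at least 1 bp of a long block, 0.71% of the annotated genes on these chromosomes. Of these, 185 were protein-coding (0.895% of 20665) and 77 were lncRNA genes (0.621% of 12408). Another 57 were pseudogenes (0.6% of 9496) and 6 were miRNA genes (0.528% of 1136). The overlapped protein-coding genes were long, with a median of 43.7 kb against 17.5 kb for all protein-coding genes. A long gene offers more bases to be hit, and the part of gene length in the counts was not tested. Within the 185 genes, a block lay inside the gene body away from both ends in 91. A block covered the 3′ end but not the start in 49, the start but not the 3′ end in 19, and the whole gene in 16. In the other 10 a block covered 1 end, and no strand was available to say which. Among the 77 lncRNA genes the block covered both ends in 16, the start in 19, the 3′ end in 20, 1 end without strand in 9 and neither end in 13.

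The 10 longest blocks were a mix of gene bodies and empty sequence. The longest, chr16:89673941-89712733, was 38.8 kb in 17 peaks over the lncRNA gene Gm35500, with a strongest peak of 11.2 in replicate 1 and 20.6 in replicate 2 (15.9 ± 6.64, SD, n = 2). The second, chr6:8220390-8257120, ran for 36.7 kb over most of Mios, a subunit of the GATOR2 complex of nutrient sensing, and into Rpa3, a subunit of the single-strand DNA binding protein RPA. It was covered to 72.6% in replicate 1 and 88.5% in replicate 2. The third, chr7:85989445-86025559, had the most peaks of any block, 27, and lay over the vomeronasal receptor pseudogene Vmn2r-ps80. Its cover was 58.7% in replicate 1 and 76.5% in replicate 2.

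Others of the 10 longest lay in Agrn, which encodes agrin, in Cep112, which encodes a centrosomal protein, and in Cep57l1, a centrosomal protein gene, with the lncRNA gene BC048559 at its edge. The Agrn block was 32.3 kb and held 61.4% of the gene, and the Cep112 block was 30.9 kb and held 7.10% of its gene. The Cep57l1 block was 28.6 kb, with 87.9% covered in replicate 1 and 93.0% in replicate 2. The remaining 4 of the 10 overlapped no annotated gene. They were chr10:83424145-83460111, chr18:79980895-80010615, chr2:116534447-116563964 and chr17:13558277-13587554. The chr10 block was the best covered of these 4, at 89.3% in replicate 1 and 93.6% in replicate 2, and its strongest peaks were 16.9 in replicate 1 and 29.3 in replicate 2.

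Whole genes lay inside long blocks in a small number of cases. Among 16096 protein-coding genes with a length of 5 kb or more, 32 had at least 50% of the body in long blocks, which is 0.199%. Zfp629, a C2H2 zinc finger gene of 8.76 kb, lay wholly within a block of 3 peaks at chr7:127606435-127618807. Peaks covered 92.0% of its body in replicate 1 and 92.5% in replicate 2, and the strongest peaks of the block were 18.99 in replicate 1 and 29.8 in replicate 2. Prmt5, which encodes an arginine methyltransferase, had 95.9% of its 10.3 kb body in a block. Replicate 1 covered 94.3% of the Prmt5 body and replicate 2 covered 96.0%. Haus4, a subunit of the augmin complex of the spindle, lay nearby on chromosome 14 with 93.5% of its body in a block of 2 peaks. Its body was covered to 88.4% in replicate 1 and 93.5% in replicate 2. Hjurp, the chaperone of the centromeric histone CENP-A, had 93.5% of its body in a block, with 73.5% covered in replicate 1 and 79.0% in replicate 2.

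The rest of the 10 genes with the largest share were B230307C23Rik (95.1%), Gm43707 (94.9%), Tmppe (92.7%), Blcap (91.7%), Gm45871 (91.4%) and D10Wsu102e (89.7%). Tmppe encodes a transmembrane metallophosphoesterase and shares its block with Glb1, the beta-galactosidase gene. Body cover of these 6 genes ran from 63.3% (Gm43707) to 87.9% (Blcap) in replicate 1 and from 78.2% (Gm45871) to 92.0% (Blcap) in replicate 2. Counting genes of any length, 16 protein-coding genes lay wholly within long blocks, and 15 of them were under 5 kb.

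The 6 blocks with 3 genes each were the most gene-rich. The one at chr17:23809784-23825428 held part of Srrm2, a splicing coactivator gene, the 3′ end of its neighbour Elob, an elongin gene read in the opposite direction, and Mir5125. Another at chr4:156237269-156252495 lay on Noc2l, Samd11 and Gm52691, with 89.0% covered in replicate 1 and 99.3% in replicate 2. A block at chr10:3262730-3281384 overlapped H60c, a ligand gene of the NKG2D receptor of natural killer cells, with Gm29826 and Gm16514. The block at chr12:116056869-116079439 joined Zfp386 with Vipr2, a receptor gene for vasoactive intestinal peptide, and Gm46383. The last 2 held Cks1brt, Gm33296 and Gm18137 on chromosome 8, and Gm37013, Gm38666 and Gm38667 on chromosome 18.

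Imprinted genes had the largest share of members in long blocks of the lists examined. Of 28 listed, 27 were annotated on these chromosomes, and 11 of the 27, or 40.7%, were overlapped, against 0.71% of all annotated genes. The 27 genes had a median length of 30.7 kb, against 6.28 kb for all annotated genes, and the part of length was not tested. The list mixes protein-coding and lncRNA genes, such as Airn, Meg3 and H19. The list was drawn up with results of these data in view, and it names genes near imprinting control regions, where the mark is known. The 11 genes lay in 9 blocks, since Peg3 and Usp29 shared a block, as did Igf2r and Airn. All 11 were overlapped by long blocks of replicate 2's own peaks. With replicate 1's own peaks 9 were, all but Nnat and Meg3. The listed gene that found no match by current symbol was Nespas, which RefSeq now calls Gnasas1. It is not counted among the 11, but 43.03% of it lay in the Gnas block.

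At 3 loci of listed genes the block took in a whole small imprinted gene that sits inside a larger host gene. Nnat, which encodes neuronatin, lies within Blcap, and its block of 10.6 kb at chr2:157554953-157565531 was made of 2 peaks. That block was covered to 89.2% in replicate 1 and 98.0% in replicate 2, and its strongest peaks were 21.6 in replicate 1 and 27.3 in replicate 2 (24.5 ± 4.07, SD, n = 2), the highest of the 9 imprinted blocks. Nap1l5, a gene of the nucleosome assembly protein family, lies within Herc3 in a block at chr6:58900160-58913506. It had strongest peaks of 14.3 in replicate 1 and 25.4 in replicate 2. Zrsr1, related to the splicing factor subunit U2AF1, lies within Commd1 in a block at chr11:22966633-22978595. Its strongest peaks were 5.32 in replicate 1 and 14.8 in replicate 2, the lowest replicate 1 value of the 9 blocks. The lncRNA gene Peg13, known as imprinted but not on the list and named after its values were seen, lies within Trappc9 and was wholly in a block at chr15:72803447-72815582. Peaks covered 100% of the Peg13 gene in each replicate, and the strongest peaks of its block were 12.5 in replicate 1 and 23.5 in replicate 2.

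At other loci the block sat at the start of the imprinted gene. Mest, which encodes a protein of the alpha/beta hydrolase family, had 58.6% of its body in a block at chr6:30730636-30742276, with 80.9% of the block covered in replicate 1 and 90.1% in replicate 2. Peg3, a paternally expressed zinc finger gene, and Usp29, a ubiquitin peptidase gene read in the opposite direction, had their starts in 1 block at chr7:6722762-6733414. That block was covered to 76.7% in replicate 1 and 89.7% in replicate 2. The block at chr17:12732614-12749590 covered the start of Airn, the antisense RNA that silences Igf2r, and 19.4% of the body of Igf2r, the receptor that clears the growth factor IGF2. It had 64.1% cover in replicate 1 and 79.5% in replicate 2.

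Meg3, a maternally expressed lncRNA gene, had its start at the edge of a 20.2 kb block, chr12:109522962-109543150, most of which lay upstream of the gene. Replicate 1 covered 70.7% of it and replicate 2 covered 91.7%. The H19 block at chr7:142576280-142588001 held 71.3% of the H19 lncRNA gene and the whole of Mir675, with strongest peaks of 16.9 in replicate 1 and 22.7 in replicate 2. Gnas, which encodes the stimulatory G protein subunit, had 24.1% of its body in a block at chr2:174289327-174304389. That block was covered to 71.4% in replicate 1 and 80.1% in replicate 2.

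**Figure D3:**
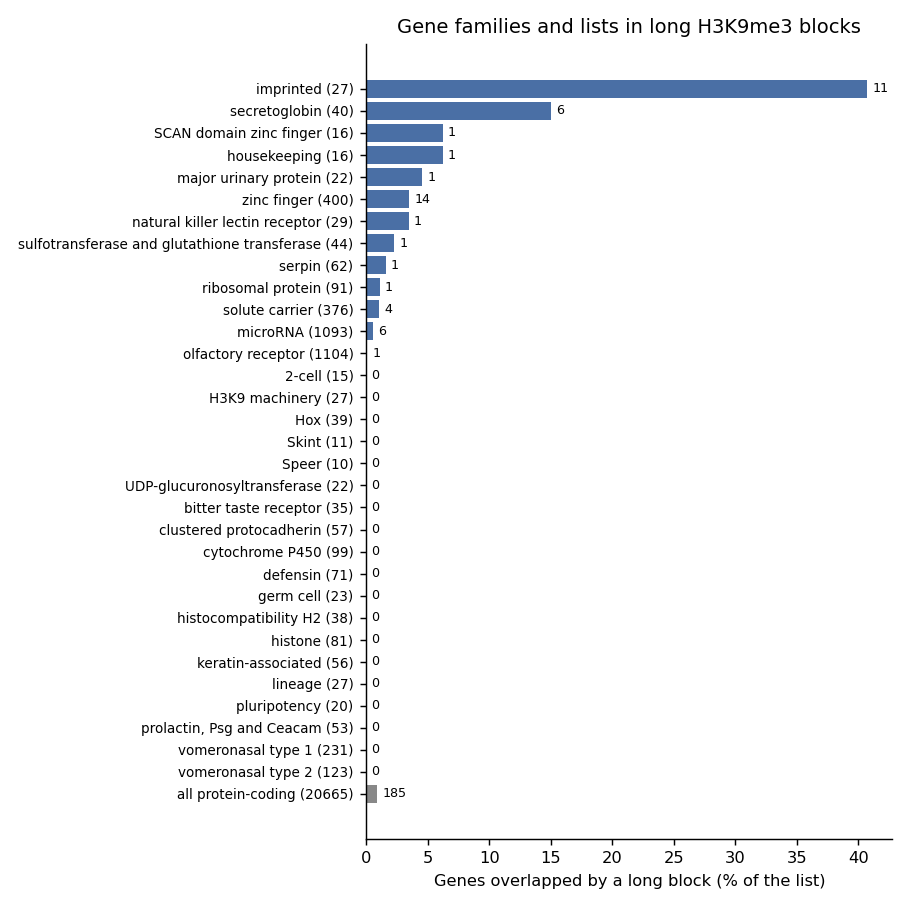
Bars give the percentage of the members of each gene family or list that were overlapped by a long block, with the number of members in brackets and the number overlapped at the bar's end; the grey bar is all protein-coding genes. Imprinted genes (11 of 27) and secretoglobins (6 of 40) have the longest bars, and most families have 0 members overlapped.

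Secretoglobins, small secreted proteins that in mice include androgen-binding proteins of saliva and tears, came next. Of 40 protein-coding secretoglobin genes, 6, or 15%, were overlapped, against 0.895% of all protein-coding genes. These were Scgb2b3, Scgb2b2, Scgb2b21, Scgb2b1, Scgb1b27 and Scgb1b2, of which the last 2 were named after their values were seen. They are small genes of 1.30 to 3.06 kb, and 5 of the 6 lay wholly within a block. Body cover by peaks was uneven between replicates. Scgb2b21 was covered to 44.1% in replicate 1 and 86.0% in replicate 2, while Scgb2b2 was covered to 53.8% in replicate 1 and 34.9% in replicate 2. The secretoglobin genes resemble one another, so reads may not have been placed on 1 copy, and the sources used here do not say how such reads were handled.

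All 6 genes lay in 2 runs of long blocks on chromosome 7. A run is defined here as at least 4 long blocks with gaps of at most 500 kb, and 15 such runs held 82 of the 550 blocks. The run with the most blocks, 12, spanned chr7:33516523-34040570, with 166.9 kb in blocks. It held 7 protein-coding secretoglobin genes, of which 2 were overlapped. Peaks covered a median of 56.0% of its blocks in replicate 1 and 74.6% in replicate 2. The other run had 6 blocks at chr7:31252012-31491970, where blocks filled 44.1% of the span, and 4 of its 6 secretoglobin genes were overlapped. Its medians were 51.6% in replicate 1 and 71.1% in replicate 2. The strongest peak of a block had a median of 10.6 in the first run and 8.94 in the second, both under the 14.5 of all long blocks. Blocks also lay between the genes. Of the 377 long blocks with no protein-coding gene, 13, or 3.45%, had a secretoglobin as the nearest one, at a median of 52.5 kb. Secretoglobins are 0.194% of protein-coding genes. Here and below, a nearest-gene share also depends on the space between genes, and blocks of 1 run count separately. The part of either was not tested.

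Both replicates gave 4 secretoglobin genes with their own long blocks, but not the same 4. Scgb2b1 and Scgb1b27 were common to both, Scgb2b2 and Scgb2b3 came from replicate 1, and Scgb2b21 and Scgb1b2 from replicate 2.

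**Figure D4:**
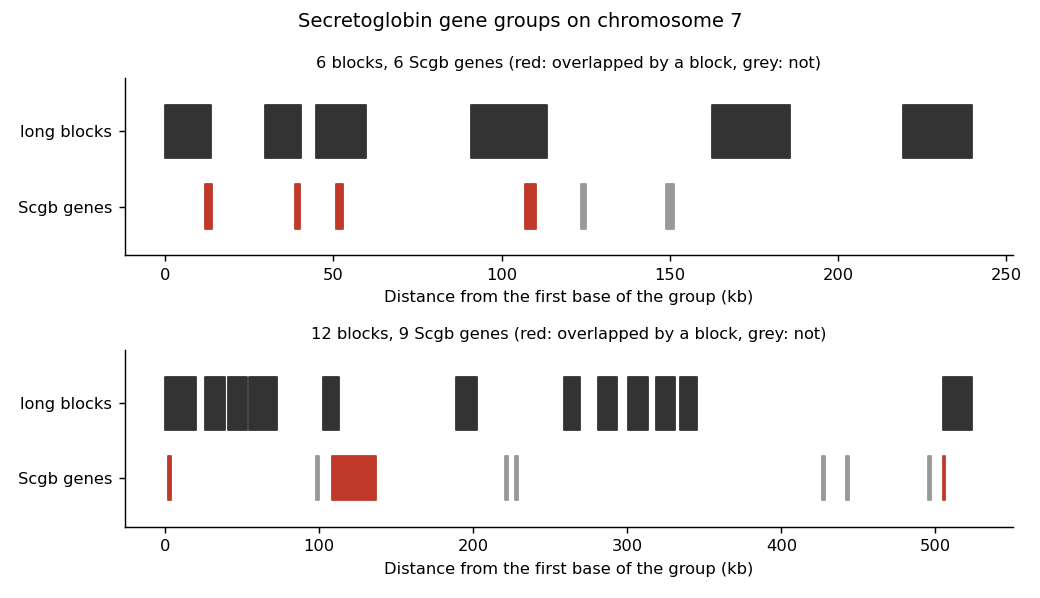
The 2 runs of long blocks at secretoglobin genes on chromosome 7, drawn to scale as distance in kb from the first base of each run. Black boxes are long blocks, red boxes are secretoglobin genes and pseudogenes overlapped by a block (4 in the upper run, 3 in the lower) and grey boxes are those not overlapped.

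Zinc finger genes were the family with the most members in long blocks. Of 400 genes with Zfp and related symbols, 14, or 3.50%, were overlapped, against 0.895% of all protein-coding genes. Their median length, 17.9 kb, is close to the 17.5 kb of all protein-coding genes. By bases in blocks, the leading 4 were Zfp462, Zfp141, Zfp938 and Zfp407. Zfp462 had 23.5 kb in a block at chr4:54989569-55013067, which was covered to 81.4% in replicate 1 and 91.9% in replicate 2. Zfp141 had 14.95 kb in a block, Zfp938 had 13.1 kb, or 79.4% of its body, and Zfp407 had 12.5 kb of its 381.8 kb. With a replicate's own long blocks, 10 of the 400 were overlapped in replicate 1 and 17 in replicate 2. Of the 377 long blocks with no protein-coding gene, 4, or 1.06%, had a zinc finger gene as the nearest one, at a median of 195.5 kb. Zinc finger genes are 1.94% of protein-coding genes, so by this measure the share was lower, with the same limit on nearest-gene shares. Zscan25, of the related SCAN domain family, was the 1 member of 16 overlapped.

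Blocks in zinc finger genes lay towards the 3′ end, where the finger array is usually encoded in a single long last exon. Of the 14 genes a block covered the 3′ end of 7, the start of none, both ends of 1 and neither end of 6. For the 11 genes with a known strand, the middle of the covered stretch was at a median of 71.8% of the way from the start, and beyond the halfway point in 9. Other overlapped protein-coding genes had a median of 51.4%, with 69 of 135 beyond the halfway point. Among genes of 5 to 50 kb the gap was smaller, at 71.8% for zinc finger genes and 65.2% for the others, of which 40 of 56 lay beyond the halfway point. The difference was not tested.

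Olfactory and type 1 vomeronasal receptor genes are short, with medians of 0.95 kb and 0.924 kb against 17.5 kb for all protein-coding genes, so each offers few bases to be hit. Of 1104 olfactory receptor genes only Olfr402 was overlapped, or 0.0906% against 0.895% of all protein-coding genes, lying wholly in a 21.7 kb block on chromosome 11 of which replicate 1 covered 74.7% and replicate 2 covered 80.5%. Peaks covered less of the Olfr402 gene itself, 24.1% in replicate 1 and 24.6% in replicate 2. None of 231 type 1 and none of 123 type 2 vomeronasal receptor genes were overlapped, while the pseudogenes Vmn1r-ps123, Vmn2r-ps23 and Vmn2r-ps80 were. With replicate 2's own long blocks, Vmn1r237, Vmn1r43 and Vmn2r79 were overlapped, and with replicate 1's own none was. The Vmn2r-ps23 block was 24.8 kb, with strongest peaks of 15.6 in replicate 1 and 28.7 in replicate 2. A type 2 vomeronasal receptor was the nearest protein-coding gene to 9 blocks without one, 2.39% of 377, where the family makes up 0.595% of protein-coding genes. An olfactory receptor was nearest to 9 too, where that family makes up 5.34%.

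In each of 5 other families 1 member was overlapped, and the shares are to be read against 0.895% of all protein-coding genes. Klrb1b, 1 of 29 natural killer cell lectin receptor genes, had 54.96% of its body in a block, with the gene covered to 51.1% in replicate 1 and 63.5% in replicate 2. Serpinb6c, 1 of 62 serpin genes, which mostly encode serine protease inhibitors, had 14.5% in a block. Mup5, 1 of 22 major urinary protein genes, was overlapped over 1.36% of its body. Sult5a1, 1 of 44 sulfotransferase and glutathione transferase genes, was overlapped over 6.96%. Rpl39l, a ribosomal protein gene used mainly in the testis, was the only one of 91 ribosomal protein genes (1.1%, near the share of all protein-coding genes), and lay wholly in a 22.7 kb block. Its body was covered to 72.1% in replicate 1 and 95.1% in replicate 2.

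Of 376 solute carrier genes, a wide family without a known link to the mark, 4 were overlapped, which is 1.06%. Slc20a2, a phosphate carrier, had 26.4 kb in a block, and Slc38a1, an amino acid carrier, had 17.8 kb. Slc22a16 had 12.3 kb and Slc5a12, a lactate carrier, had 10.6 kb. That share is near the 0.895% of all protein-coding genes.

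No member was overlapped among Hox genes (39), histone genes (81), cytochrome P450 genes (99), clustered protocadherins (57), keratin-associated protein genes (56) and defensins (71). The same held for bitter taste receptors (35), histocompatibility H2 genes (38), UDP-glucuronosyltransferases (22), prolactin, Psg and Ceacam genes (53), Speer genes (10) and Skint genes (11). Nor was any of 23 germ cell genes, 15 genes of the 2-cell stage, 20 pluripotency genes, 27 lineage genes and 27 genes of the H3K9 methylation machinery overlapped. These lists are short, and with a background of 0.895% a count of 0 in any one of them is near it. For cytochrome P450 genes, replicate 2's own long blocks overlapped 2 of the 99, Cyp2c55 and Cyp2d34. A P450 gene was also the nearest protein-coding gene to 6 of the 377 blocks without one (1.59%, where the family makes up 0.479% of protein-coding genes), at a median of 7.14 kb. For clustered protocadherins this was so at 3 blocks (0.796%, against 0.276% of protein-coding genes), at a median of 27.1 kb. Families were matched by symbol, so Gm37013, Gm38666 and Gm38667 were counted in none of them. The block on these 3 genes belonged to a run of 6 long blocks at chr18:36803651-37243794. Of 16 housekeeping genes Actg1, a cytoplasmic actin gene, was overlapped over 87.8% of its body together with Mir6935. Peaks covered 47.0% of the Actg1 body in replicate 1 and 58.6% in replicate 2. Of 1093 genes with microRNA symbols 6, or 0.549%, were in blocks, against 0.71% of all annotated genes. Among them were Mir335, Mir675, Mir5125 and Mir6935, each within a block on a gene named above. Peaks of replicate 1 covered none of Mir335 or Mir5125, and those of replicate 2 covered all of both. Mir675 and Mir6935 were wholly covered in each replicate.

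Long blocks were spread over all 19 chromosomes but not in proportion to peak bases. The share of peak bases in long blocks was 12.2% on chromosome 18, 10.2% on chromosome 7 and 10.1% on chromosome 17. It was 1.57% on chromosome 19, 3.63% on chromosome 2 and 3.88% on chromosome 15, against 7.12% over all. Chromosome 1 had the most blocks, 51, and chromosome 19 the fewest, 3. Of the 550 long blocks, 23 began within 4 Mb of the first base, where the mouse centromere lies. The share of other joined blocks that began there was not counted, so 23 cannot be called many or few. On chromosome 3 a run of 5 blocks at chr3:3021097-3349495 overlapped no annotated gene. A run of 4 blocks at chr10:83361107-83493553 filled 72.2% of its span and included the block on D10Wsu102e.

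**Figure D5:**
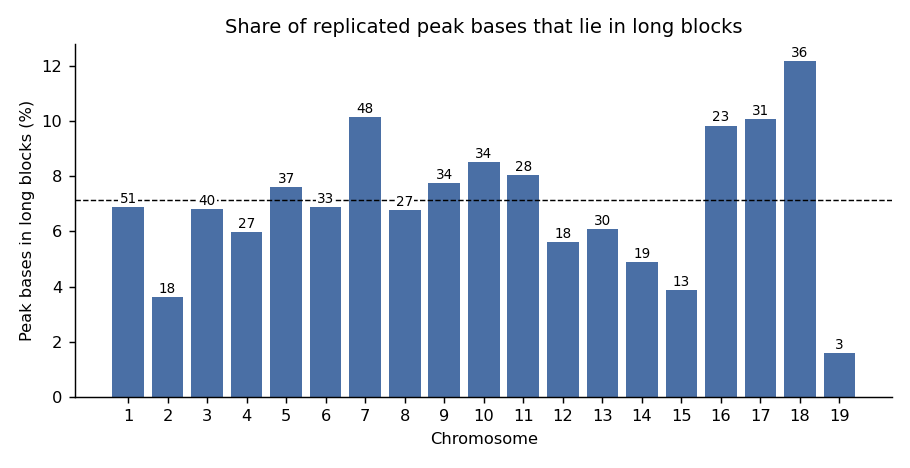
Bars give the percentage of replicated peak bases on each chromosome that lie in long blocks, and the number above each bar is its count of long blocks. The dashed line is the value over chromosomes 1 to 19, 7.12%, and chromosome 18 has the tallest bar.

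Promoter windows in long blocks had a lower median number of CpG than promoter windows at large. RefSeq promoter windows of 300 bases, running from 250 before to 50 after a transcript start, lay wholly in a long block in 83 of 31396 cases (0.264%), for 68 genes. They are set beside windows under replicated peaks outside long blocks, which only had to touch a peak, so the 2 inclusion rules differ. The median GC content of the windows in long blocks was 48.7%, against 49.7% for those under peaks outside and 53% for all windows. The median number of CpG was 3 in long blocks, 4 under peaks outside and 7 over all. The windows in long blocks were of lncRNA as well as protein-coding genes, and some genes gave several windows. The part of either in these medians was not tested. A TGCCGC on either strand was present in 9.64% of the windows in long blocks, 8.17% of those under peaks outside and 11.6% of all windows. The share in long blocks lay between the other 2, and no difference was tested.

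The authors' mm9 regions, called separately and wider, were set beside the same genes and sequences without converting coordinates. Of the 83 windows in long blocks, 79 had exactly 1 exact copy in the mm9 genome, none had several and 4 had none. Of the 79, 67, or 84.8%, overlapped mm9 regions of both replicates. The share was 53.9% for windows under peaks outside long blocks and 2.84% for all windows. Windows of the outside group only had to touch a peak, so 84.8% and 53.9% rest on unlike inclusion rules. By gene, 143 of the 185 overlapped protein-coding genes were matched by symbol to GENCODE M1 on mm9. Of these 132, or 92.3%, had some of the body in mm9 regions of both replicates, against 20.6% of the other 17329 matched genes. The median covered share was 24.98% for overlapped genes and 0 for the others. The mm9 regions come from the same 2 libraries, so this compares peak calling and not new samples. The overlapped genes and windows were picked by peaks of these libraries, so a higher share was built into the choice. The 185 genes were also longer, with a median of 43.7 kb against 17.5 kb for all protein-coding genes. The part of gene length was not tested. Hjurp and D10Wsu102e, which were among the 10 most covered genes in mm10, had 0% of the body in the mm9 regions of either replicate. B230307C23Rik, another of the 10, had 97.5% of the body in mm9 regions of replicate 1 and 0% in those of replicate 2. Zfp629 had 100% in regions shared by both replicates, Haus4 had 96.8% and Prmt5 had 96.5%. The cause of these differences was not tested.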

How the data were processed

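H3K9me3 ChIP-seq peak lists of 2 replicates of the E14TG2a.4 line were analysed. The deposited mm10 lists are of narrowPeak type and give each peak the authors' fold enrichment (a linear ratio), −log10 p and −log10 q. The mm9 lists are of broadPeak type, and the authors deposited a fold enrichment with a linear p-value and q-value for each region. Per the deposited file lists, the replicated mm10 list was made from the pooled list and both per-sample lists. Peak caller, aligner, versions and the treatment of reads that map to several places are not given in sources used here. The lists hold no counts, so no depth, interval or count test was possible. The labels name a separate biosample for each replicate and say no more on how they were grown.

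Peaks of the replicated list on chromosomes 1 to 19 at most 1000 bp apart were joined, and joined blocks of at least 10000 bp were kept, with Python 3.11.15, numpy 2.4.6 and pandas 2.3.3. A gene was overlapped when it shared at least 1 bp with a block. Genes and promoter windows came from RefSeq on GRCm38.p6, and strand from the promoter windows where a gene had one. Promoter sequences were aligned with Biopython 1.88, and exact copies of the 300-base windows were searched in mm9. Fold enrichments were used only to describe and filter peaks, and means ± SD are over 2 replicates whose peaks were called separately. The joining step was checked on simulated peaks, where 400 of 400 planted blocks came back with the right ends. Planted gaps were at most 1000 bp within blocks and over 1000 bp between them, so this checks the code only. No test was run, since the peaks that chose the blocks are the data described.

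Named genes were those in the 10 longest blocks, the 10 genes with the largest share in blocks among protein-coding ones of 5 kb or more, up to 4 members per family or list, every listed imprinted gene overlapped, and the genes of the 5 blocks with the most genes, where ties made 6. The members and lists were chosen with earlier results of these data known. Alternatives were other joining distances and lengths, each replicate's own list, the pooled one, stricter peaks and a larger gene overlap.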

Additional observations from a re-analysis of the deposited data

Results flagged for a closer look

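Signal of the same kind appeared outside chromosomes 1 to 19, in data that the rule for long blocks leaves out. The same joining gave 8 long blocks there, and no expected number is available to set beside it. Of these, 6 lay on the X chromosome, 1 on the Y chromosome and 1 on an unplaced scaffold. The longest was 28.2 kb, on the X chromosome, and the one on the Y chromosome was 23.5 kb. The line is male, so each sex chromosome is present in a single copy, and no control library was analysed here.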

How the results depend on the processing

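The alternatives gave 70 values for 9 results, of which 29 moved. Counts of blocks or genes were taken as moved beyond 1.5 times the reported count, and Mb and shares beyond 1 SD between the replicates' own lists. For Mb that SD is wide, so values over 1.5 times away are also given. Joining over 500 bp gave 277 blocks, 3.75 Mb, on 117 protein-coding genes with 92.1% of bases under peaks. Joining over 2000 bp gave 1052 blocks, 15.5 Mb, 289 genes, 5.5% of zinc finger genes and 72.7% under peaks. A limit of 20 kb gave 49 blocks, 1.23 Mb, 53.1% of blocks on a protein-coding gene, 33 genes, 9 genes at least 50% in blocks, 0.5% of zinc finger genes and 86.9% under peaks. A limit of 5 kb gave 3257 blocks, 25.7 Mb, 749 genes, 56 genes at least 50% in blocks, 10.75% of zinc finger genes and 82.6% under peaks. The pooled list gave 841 blocks, 11.8 Mb, 5% of zinc finger genes and 79.8% under peaks. Peaks with a fold enrichment of at least 4 gave 340 blocks, 4.66 Mb, with 88.2% under peaks. With 1 replicate left out there were 315 to 789 blocks, 4.39 to 10.99 Mb, 26.2 to 37.5% of blocks on a protein-coding gene, 129 to 219 genes, 25 to 41 genes at least 50% in blocks, 2.5 to 4.25% of zinc finger genes and 76.1 to 78.2% under peaks. Chosen after seeing the data, the same setting gave 9 to 11 imprinted genes and 4 secretoglobin genes either way. A lower length limit can only add blocks, and other causes were not tested. No paired analysis was possible because the series has 1 group. Depth is unknown, and its part in the lower counts of replicate 1 was not tested.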

Other observations

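Some short genes of tandem families lay in long blocks. These were chosen after their values were seen and stand for no list. Ly6g, a surface antigen gene of neutrophils, lay wholly in a 10.6 kb block on chromosome 15 covered to 46.5% in replicate 1 and 71.0% in replicate 2. A second block nearby overlapped 67.8% of Ly6f. Ifna13, a type I interferon gene, lay wholly in an 18.9 kb block on chromosome 4, covered to 63.8% in replicate 1 and 81.0% in replicate 2. Fpr3, of the formyl peptide receptor family, lay wholly in a 10.9 kb block on chromosome 17, covered to 72.7% in replicate 1 and 87.8% in replicate 2.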
